A study of Mus musculus with 4 samples.

Results

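The Hox genes of the mouse were followed here through whole intestine, crypts and cultures grown from crypts. The members were the spots other than controls whose gene name on the array was Hox followed by a, b, c or d and a number, whatever their signal. This gave 60 spots of 42 oligonucleotides for the 38 genes described here, out of 43020 such spots, 39429 oligonucleotides and 30107 genes on the array. Of the 38, 10 belonged to the Hoxa cluster, 10 to Hoxb, 9 to Hoxc and 9 to Hoxd. A single oligonucleotide read 34 of the genes, and 4 genes (Hoxa9, Hoxa13, Hoxb3 and Hoxd11) had 2.

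Gene expression was measured on 4 one-colour Agilent mouse arrays of 1 slide, 1 array for each of 4 wild type samples of the strain C57/BL6. The samples were whole intestine, crypt (the pits at the base of the villi, where the Lgr5-positive stem cells lie), and a pair of crypt-villus organoids, which are epithelial structures cultured from such crypts. The organoids carried the names y-organoid and o-organoid, and the labels did not say what y and o stand for, how long either was cultured or whether any agent was added. The Cy3-labelled cRNA was made from 20 ng of total RNA for each sample other than o-organoid, for which 40 ng was used. No age, sex or gut segment was given, and whole intestine holds muscle, connective tissue, nerve, vessel and immune cells besides epithelium. With 1 array for each sample there was no replicate, so no test was possible, a difference is a difference between these 4 RNA samples, and their number limits the precision of every statement.

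Hox genes encode homeodomain transcription factors and lie in 4 clusters in mammals, where genes at the same place in different clusters form paralog groups. Groups with low numbers lie at the 3′ end of a cluster and are used toward the head of the embryo, and groups with high numbers lie at the 5′ end and are used toward the tail. In the gut, Hox genes are best known for patterning the mesoderm around the epithelial tube along its length, while the Cdx genes, relatives outside the clusters, set intestinal identity in the epithelium.

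Each Hox gene was read by an oligonucleotide of 60 bases, and what it measured was the transcript that carries this stretch. The last 30 bases are shown here for the 11 Hox genes past 2-fold in a comparison below, and for Hoxd4, Hoxa4 and Hoxc10, which show a reading near the limit of detection, one detected on every array and one detected on o-organoid alone. They are given 5′ to 3′ in the sense of the transcript, at the positions on mm9 that the array files give for the whole oligonucleotide. Capitals mark a poly-A signal (AATAAA or ATTAAA), the motif that directs cleavage at a transcript's 3′ end.
Hoxb4 oligonucleotide, chr11:96182885-96182944, plus strand: gacaacagaAATAAAtgtttggtttcttgt
Hoxc4 oligonucleotide, chr15:102867213-102867272, plus strand: cccgtgatcaatAATAAAccagtggctgtg
Hoxa3 oligonucleotide, chr6:52119087-52119146, minus strand: ttgctgctcacattctgagaaacaaaacaa
Hoxb5 oligonucleotide, chr11:96167130-96167189, plus strand: atggaatcagaaataatcctcagtgtaaaa
Hoxb2 oligonucleotide, chr11:96215122-96215181, plus strand: aataATTAAActctagtgggagagggtttt
Hoxb6 oligonucleotide, chr11:96162563-96162622, plus strand: cacggttcaatggtagattcgctgtcccct
Hoxc6 oligonucleotide, chr15:102842243-102842302, plus strand: ttctcgaatatttAATAAAactgatattat
Hoxb7 oligonucleotide, chr11:96151211-96151270, plus strand: tgttttgtaagccctctttgaagctgtctt
Hoxd4 oligonucleotide, chr2:74566866-74566925, plus strand: cccttggcgagtcATTAAActcctgaaaat
Hoxa4 oligonucleotide, chr6:52140287-52140346, minus strand: tcacttatgtgccctactcatctcctgctc
Hoxa7 oligonucleotide, chr6:52165626-52165685, minus strand: attgattttagttacaaaaatggggggaaa
Hoxa6 oligonucleotide, chr6:52158194-52158253, minus strand: ctgtttacccctggatgcagcggatgaatt
Hoxc12 oligonucleotide, chr15:102768889-102768948, plus strand: ctgagggagcaagctctctccttcttctag
Hoxc10 oligonucleotide, chr15:102801857-102801916, plus strand: ggtctgtaaccttgtagagcacagttagca
An AATAAA or ATTAAA lay anywhere in the 60 bases of 8 of the 38 oligonucleotides that represented the Hox genes (21.1%), against 16.7% of all 39429. The share was 5 of 14 (35.7%) among the genes well above background on the intestine array, with Hoxb2, Hoxb4, Hoxc4, Hoxc6 and Hoxd4 as the 5, and 3 of 24 (12.5%) among the others. The GC content of the oligonucleotides had a median of 38.3% in those 14 genes and of 40.9% in the 24, with a range of 35.0% to 55.0% in both. No annotation of the mm9 build was used here, so exon and UTR positions are not given.

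Values are the scanner software's processed intensities, that is, spot brightness after background subtraction, and ± gives that software's own error of the intensity. A gene is called detected where the software marks its spot as well above background. A total of 14 Hox genes were detected on the intestine array, 2 on the crypt array, 4 on the y-organoid array and 3 on the o-organoid array, against 58.8%, 52.2%, 54.3% and 54.8% of all genes. Altogether 16 of the 38 passed on at least 1 array and 22 on no array (35.5% of all genes passed on none). A total of 11 passed on intestine alone, against 5.39% of all genes. Hoxa4 was the 1 Hox gene detected on all arrays, where 48.0% of all genes were. For 15 of the 38 genes on intestine, 23 on crypt, 22 on y-organoid and 22 on o-organoid the processed intensity was a surrogate that the software sets for a spot too dim to read, so these low values have no order among themselves. In the same order these are 39.5%, 60.5%, 57.9% and 57.9% of the Hox genes, against 20.6%, 26.9%, 23.2% and 23.4% of all spots.

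**Figure D1:**
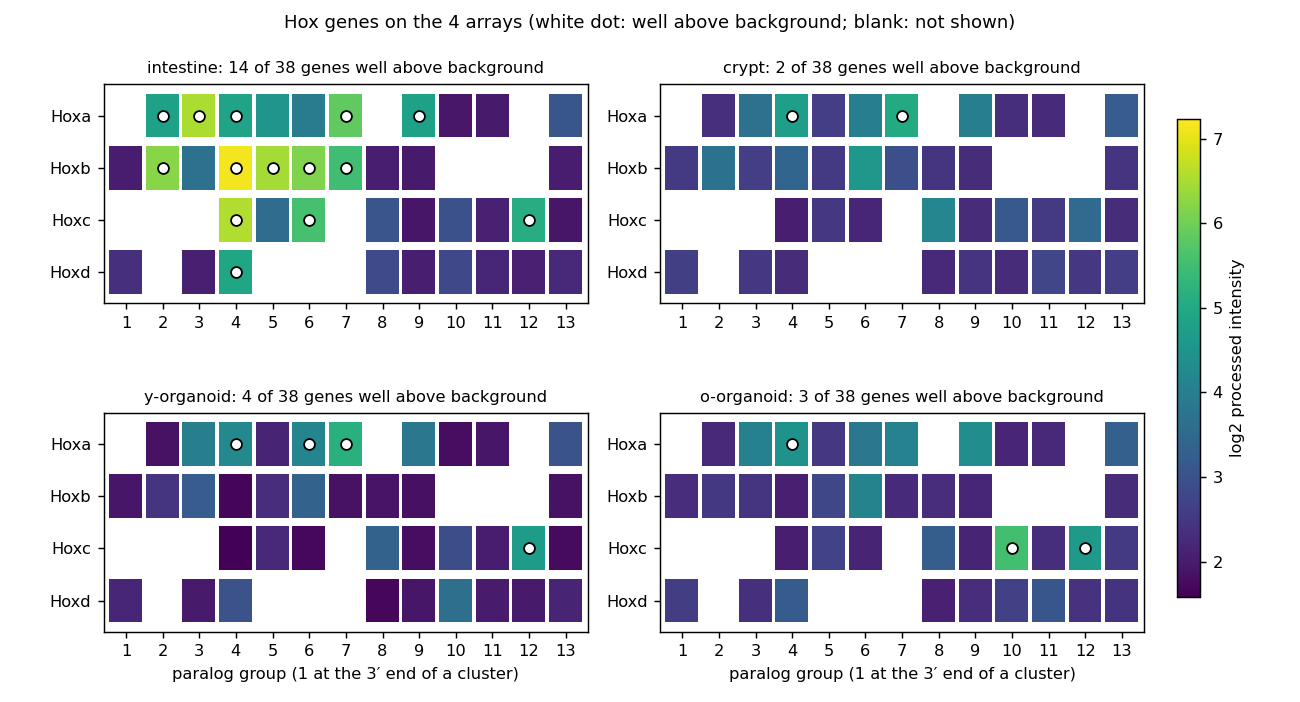
Processed intensity (colour, log2) of the 38 Hox genes by cluster (vertical) and paralog group (horizontal) on each of the 4 arrays, with a white dot where the gene was well above background. On intestine 9 of the 15 genes of paralog groups 4 to 8 carry a dot, where 58.8% of all genes were well above background. On the other 3 arrays 2, 4 and 3 of all 38 genes carry one (52.2%, 54.3% and 54.8% of all genes).

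A dim gene drops out of detection more easily than a bright one, so genes of like brightness were set beside the Hox genes. The 14 Hox genes detected on intestine had intensities of 27.7 to 140.4 there. In that range lay 5080 genes of the array detected on intestine, and 802 of them (15.8%) were detected on no other array, against 11 of the 14 Hox genes. The range was set by the lowest and highest of these Hox readings themselves, and brightness was not matched within it. The 14 were also chosen by their detection on intestine. The part of low brightness in their missing detection elsewhere was therefore not tested. On the arrays as a whole, 51.9% to 58.7% of spots were well above background, no spot was saturated, the 75th percentile of intensity ran from 282 on y-organoid to 644 on o-organoid, and the dimmest detected signal lay between 12.7 and 20.4. Oligonucleotides spotted repeatedly, detected and under 150 in intensity varied within an array by 0.164 to 0.224 (pooled SD of log2 intensity), which measures spot error and not the spread between animals or cultures.

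On the intestine array 58.8% of all genes were detected. The middle groups of the Hox clusters came near that share, and the groups at the 5′ end lay far below it. Of paralog groups 1 to 3, 3 of 7 genes were detected there; of groups 4 to 8, 9 of 15; and of groups 9 to 13, 2 of 16. All 4 genes of group 4 passed, as did both of group 2 and both of group 7, while none of the 3 genes each of groups 8, 10 and 11 and none of the 4 of group 13 did. By cluster, 5 of 10 Hoxa, 5 of 10 Hoxb, 3 of 9 Hoxc and 1 of 9 Hoxd genes were detected on intestine. No Hoxb or Hoxd gene was detected on any of the other 3 arrays. Detection depends on how well an oligonucleotide binds as well as on the transcript, so these counts describe readings and do not rank the genes.

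Among the anterior genes (groups 1 to 3), Hoxa3, which acts in the pharyngeal arches and their glands, read 91.2 ± 9.97 on intestine, 12.7 on crypt, 15.9 on y-organoid and 16.5 on o-organoid. Hoxb2, a gene of hindbrain segmentation, read 74.9 ± 8.92, 13.2, 5.51 and 5.65 in the same order. Both were detected on intestine only. Hoxa2, which patterns the second pharyngeal arch, was detected on intestine at 27.7 ± 4.82 and read 5.09, 3.55 and 4.71 elsewhere. Hoxb1, Hoxb3, Hoxd1 and Hoxd3 were detected on no array.

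Of the central genes (groups 4 to 8), Hoxb4, also known from blood stem cells, read 140.4 ± 14.5 on intestine, 10.6 ± 4.67 on crypt, 3.17 on y-organoid and 4.22 on o-organoid. Hoxc4 read 94.0 ± 10 and then 4.17 ± 4.15, 3.09 ± 3.08 and 4.16 ± 4.15. Hoxb5, a gene of the gut wall and of the neural crest cells that build the enteric nervous system, read 89.0 ± 9.73, 5.84, 4.96 and 6.91. In each of these the intestine reading stood alone and the other 3 were not detected. Hoxb6 read 71.5 ± 8.24 on intestine, 24.2 ± 5.50 on crypt, 10.2 on y-organoid and 17.2 on o-organoid, so that its crypt reading, although not detected, was several times its error. Hoxc6 had 47.3 ± 5.99 on intestine against 4.58, 3.28 and 4.42, and Hoxb7 had 45.0 ± 5.97 against 7.66, 3.56 and 4.76. Hoxd4 had 30.2 ± 4.85 on intestine and 4.88, 8.09 and 9.23 elsewhere. These 3 genes were likewise detected on intestine alone.

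A few central Hoxa genes read otherwise. Hoxa4 gave 29.1 ± 4.48 on intestine, 26.3 ± 4.88 on crypt, 18.8 ± 3.59 on y-organoid and 21.6 ± 4.67 on o-organoid, all of them detected. Less the 75th percentile of each array, its log2 values were -3.73, -4.17, -3.91 and -4.89, lowest on o-organoid. Hoxa7 gave 57.8 ± 7.05, 32.2 ± 6.26 and 36.0 ± 5.08 on intestine, crypt and y-organoid, all detected, and 16.7 ± 4.98 on o-organoid, which was not. Hoxa6 lay between 14.1 and 17.9 on every array and was detected only on y-organoid, at 17.9 ± 3.67, which is the array with the lowest limit of detection. Hoxa5, a gene needed for stomach and lung mesenchyme, read 23.0 ± 5.36 on intestine and 4.46 to 6.06 elsewhere, and was detected on no array. Hoxc5 and the genes of group 8 (Hoxb8, Hoxc8 and Hoxd8) were detected on none. Hoxc8 came nearest, on crypt, at 18.1 ± 5.53.

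Posterior genes (groups 9 to 13) were detected rarely. Hoxa9 read 28.2 ± 4.65 on intestine, 16.1 on crypt, 14.1 on y-organoid and 20.2 on o-organoid by 1 oligonucleotide, and 4.84 to 7.87 by the other, which was detected on no array. Hoxc12, near the 5′ end of its cluster, read 34.2 ± 5.26 on intestine, 11.5 ± 5.42 on crypt, 25.7 ± 4.43 on y-organoid and 24.9 ± 5.33 on o-organoid, and crypt was the only array of the 4 without detection. Hoxc10, active in the hindlimb and lumbar region, read 7.92, 8.83 and 7.43 on intestine, crypt and y-organoid and 45.6 ± 6.27 on o-organoid, the only array where it was well above background. The other 13 posterior genes, among them all 5 Hoxd genes of these groups and the 4 genes of group 13, were detected on no array.

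**Figure D2:**
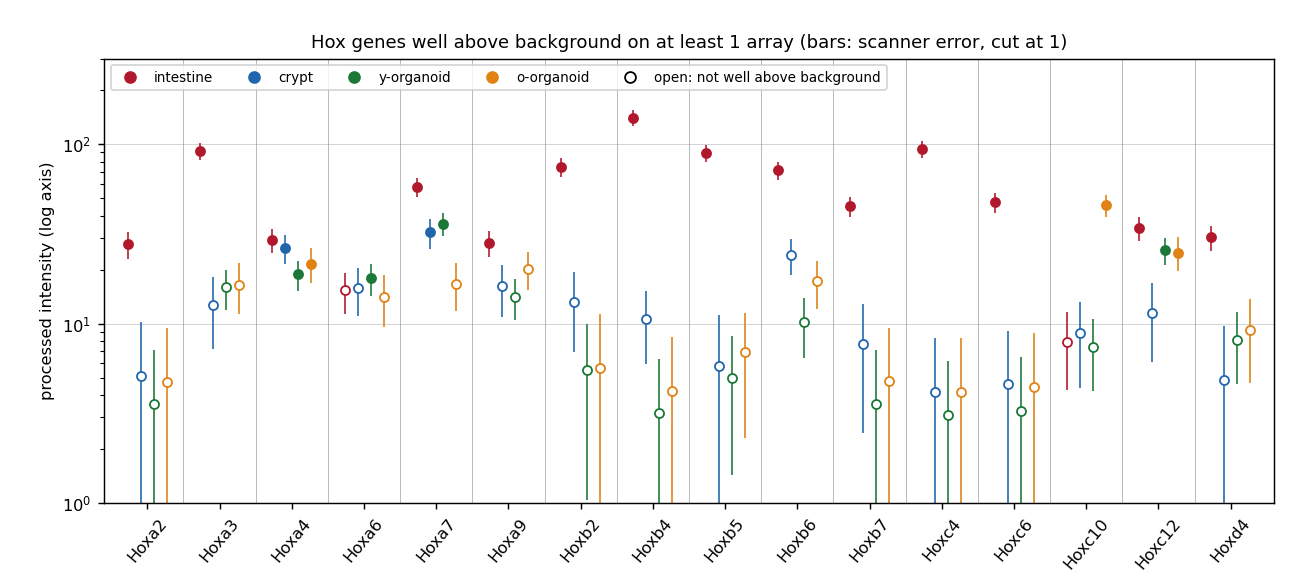
Processed intensity on a log axis, with the scanner software's error, of the 16 Hox genes detected at least once; filled points are well above background and open points are not. For 11 genes the intestine point alone is filled, Hoxa4 is filled on all 4 arrays, and Hoxc10 is filled on o-organoid alone.

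Crypt was compared with whole intestine to ask which Hox transcripts are found in the isolated epithelial pits. A difference is the log2 intensity, less the 75th percentile of its array, in one sample minus the other. Where 1 side was not well above background, a bound was taken against the higher of that spot's signal and the lowest signal of any oligonucleotide well above background on its array, and it is written as "at least". Of the 38 Hox genes, 10 were at least 2-fold lower in crypt than in intestine and 0 were 2-fold higher. Another 4 differed by less than that, and 24 were below background on both. Among all 30107 genes, 8.68% were lower and 4.04% higher by the same rule. Since most Hox genes passed only through the intestine array, where they read high, the direction of their bounds was set by that choice. Of the genes that passed on either array the median difference was -1.47 for Hox genes and 0.06 for all. For Hox genes it became -0.69 with normexp (a background correction fitted to the raw signals), -0.74 by quantile normalization and -0.72 by the deposited scaling.

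Hoxb4 was at least 8.41-fold lower in crypt, Hoxc4 at least 5.64-fold, Hoxa3 at least 5.47-fold, Hoxb5 at least 5.33-fold and Hoxb2 at least 4.49-fold. Smaller bounds were found for Hoxb6 (3.61-fold), Hoxc6 (2.84-fold), Hoxb7 (2.70-fold) and Hoxc12 (2.05-fold). Hoxa7, measured on both arrays, was 2.19-fold lower, and Hoxa4, also measured on both, was 1.36-fold lower, within the threshold. For Hoxd4, Hoxa9 and Hoxa2 the bound stayed under 2-fold since their intestine readings lay close to the limit of detection, and the size of the difference is not known. With other processing their log2 values ranged from -2.92 to -0.11, from -1.10 to 0.00 and from -2.73 to 0.00. Repeated spots that were detected and under 150 in intensity gave an SD of 0.259 for a log2 difference between these arrays. The 2-fold threshold is larger than this SD, so the 9 bounds and the Hoxa7 difference exceed it by construction. Repeated spots below detection varied more within an array (pooled SD of 0.385 on intestine and 0.417 on crypt). The SD of 0.259 leaves them out and so does not cover the undetected side of a bound. The 4 genes Hoxb4, Hoxc4, Hoxa3 and Hoxb5 stayed at least 2-fold lower under each of 7 other ways to process the arrays. Some of these ways change few Hox values or give nearly the same values as each other. Hoxb4 ranged from -4.02 to -1.62 over these and Hoxa3 from -3.13 to -1.08. The other 6 fell within 2-fold under at least 1 of them, and the sign for Hoxa4 turned (0.31) under quantile normalization and under the scaling of the deposited table. Over all genes 31.8% of those past 2-fold were higher in crypt, and this became 53.9% by quantile normalization and 81.5% by the deposited scaling, which move the median of all genes to 0.15 and 0.80. No Hox gene was 2-fold higher in crypt under any of them.

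**Figure D3:**
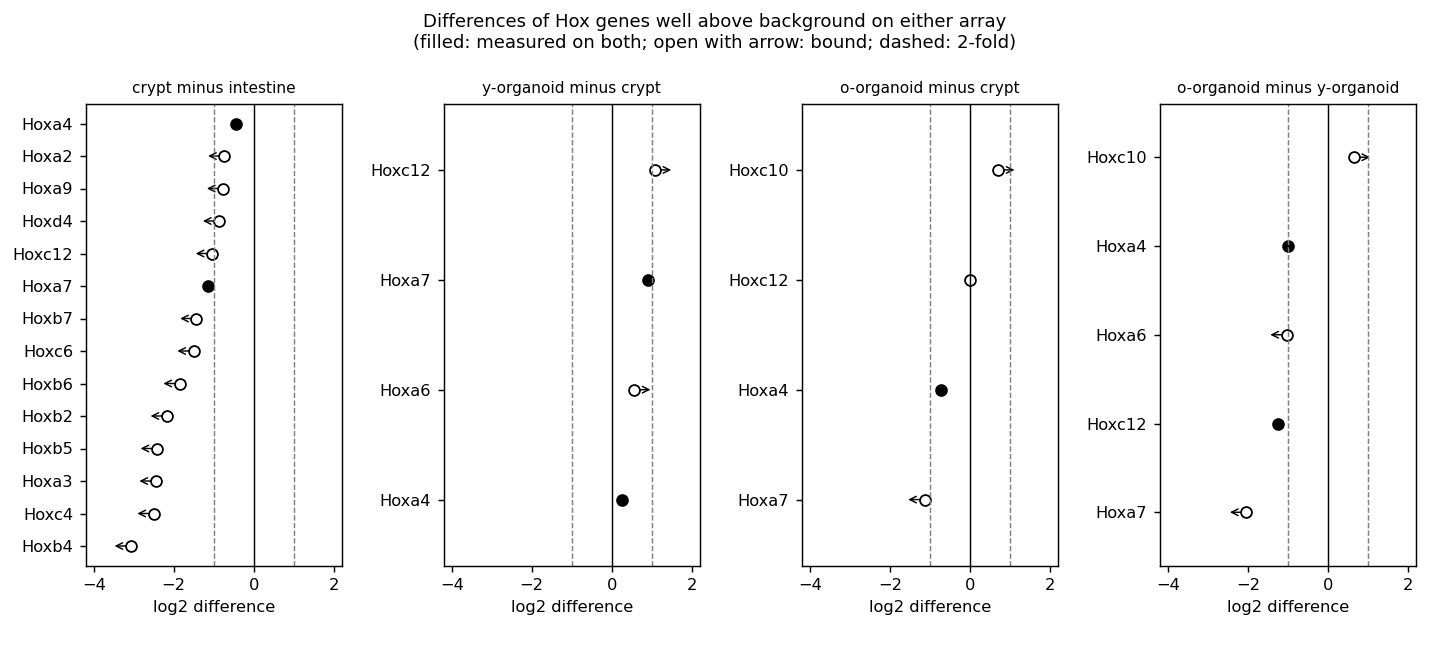
Log2 difference between arrays for each Hox gene detected on either array of a pair, in 4 panels; filled points were measured on both arrays, open points with an arrow are bounds, and dashed lines mark 2-fold. In the crypt panel 10 of the 38 Hox genes lie beyond 2-fold on the lower side, where 8.68% of all genes do. The 14 genes in that panel were all detected on intestine. For 12 of them the point is a bound, whose direction was set by that detection. In the 3 organoid panels at most 5 genes could be compared.

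The organoids were compared with crypt, their tissue of origin, and share that 1 crypt array, so their differences are given side by side and not as independent results. In y-organoid 1 Hox gene was at least 2-fold higher than in crypt (10.6% of all genes were) and 0 were lower (7.73% of all genes). This was Hoxc12, at least 2.11-fold higher, and it fell within 2-fold under 3 of the other settings. Hoxa7 was 1.87-fold and Hoxa4 1.20-fold higher, both measured and within 2-fold, and Hoxa6 was at least 1.47-fold higher. Hoxa4 turned to -0.28 and -0.26 under quantile normalization and the deposited scaling. In o-organoid 0 Hox genes were at least 2-fold higher than in crypt (4.90% of all genes) and 1 was lower (7.73%). That gene was Hoxa7, at least 2.19-fold lower, and it fell within 2-fold with normexp (-0.60) and quantile normalization (-0.96). Hoxc10 was at least 1.64-fold higher, a bound that is small because the dimmest detected signal on crypt is 20.4, and it came to 0.08 in log2 units with normexp. Hoxa4 was 1.65-fold lower. The median difference was 0.73 in y-organoid (0.16 for all genes), over 4 Hox genes, which became 0.24 by quantile normalization and 0.22 by the deposited scaling (0.06 and -0.36 for all genes). It was -0.36 in o-organoid (0.00 for all genes), over 4. For 34 Hox genes in y-organoid and 34 in o-organoid neither that array nor crypt was well above background, so a difference was not detectable there.

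Between the organoids, 3 Hox genes were at least 2-fold lower in o-organoid than in y-organoid and 0 were higher, against 11.1% and 4.74% of all genes. Hoxa7 was at least 4.11-fold lower and stayed past 2-fold under the 7 other settings. Hoxc12, measured on both, was 2.35-fold lower, and Hoxa6 was at least 2.05-fold lower. The intensities of Hoxc12 itself were 25.7 and 24.9 before scaling, and the difference comes in with the 75th percentiles of the arrays, which were 282 and 644. Under the deposited scaling Hoxc12 and Hoxa6 came to -0.60 and -0.40. Hoxa4 was 1.98-fold lower after scaling, while its intensity before scaling was higher on o-organoid (21.6) than on y-organoid (18.8). It came to -0.79 in log2 units with normexp, -0.29 by quantile normalization and -0.35 by the deposited scaling. Hoxc10 was at least 1.57-fold higher in o-organoid. In log2 units this bound became 1.30 and 1.29, past 2-fold, under quantile normalization and the deposited scaling and fell to 0.00 with normexp. Over the 5 Hox genes detected in either organoid the median was -1.03, against -0.15 for all genes. It became -0.34 by quantile normalization and -0.40 by the deposited scaling, where the median of all genes was -0.03 and 0.45. The share of higher genes among all past 2-fold was 29.9%, 47.7% and 80.0% under these 3 scalings in this comparison, and in y-organoid against crypt it was 57.8% and, under the deposited scaling, 25.6%.

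Hoxa11 and Hoxb1 were each spotted 10 times on every array and so show what an unread Hox gene looks like. The Hoxa11 spots ran from 3.47 to 4.78 on intestine and from 4.16 to 6.20 on crypt. The Hoxb1 spots ran from 3.51 to 4.84 on intestine and up to 26.4 on crypt, where that 1 spot was marked as an outlier and was left out. The reading of Hoxc10 on o-organoid came from 1 spot. It carried no outlier mark, but it had no repeat on that array to be compared with, so a stray reading cannot be told apart.

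Along the chromosomes the oligonucleotides of the clusters spanned 96.4 kb on chromosome 6 (Hoxa), 171 kb on chromosome 11 (Hoxb), 108 kb on chromosome 15 (Hoxc) and 93.8 kb on chromosome 2 (Hoxd). The detected Hoxb genes formed an unbroken run on the intestine array from Hoxb7 to Hoxb4, followed after Hoxb3 by Hoxb2. Between the Hox oligonucleotides lay 17 others, looked up after the Hox values had been seen, and 12 of these were detected on no array. A pair was detected on intestine alone, like 11 of the 38 Hox genes. The oligonucleotide for the RIKEN cDNA 0610040B09, on the opposite strand beside that of Hoxb7, read 49.2 ± 6.05 on intestine and 4.39, 3.15 and 4.20 on crypt, y-organoid and o-organoid. AI448005, beyond Hoxd4 on the same strand, read 42.1 ± 5.65 on intestine and 4.76, 3.39 and 4.47. Another pair, 6720416L17Rik in Hoxd (36.5 to 50.5) and an oligonucleotide without a gene name between Hoxb13 and Hoxb9 (27279.6 to 95482), was detected on all arrays, and Gm4200 in Hoxc was detected on intestine and y-organoid. An oligonucleotide antisense to that of Hoxa3 read 17.4 ± 4.06 on intestine and was not detected. Hottip, the noncoding RNA at the 5′ end of Hoxa, read 18.8 ± 3.96 on intestine, just past detection, and 3.12 to 4.34 elsewhere. Hoxa11os, antisense to Hoxa11, was detected on none, and no oligonucleotide was matched to Hotair, Hotairm1 or Halr1.

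**Figure D4:**
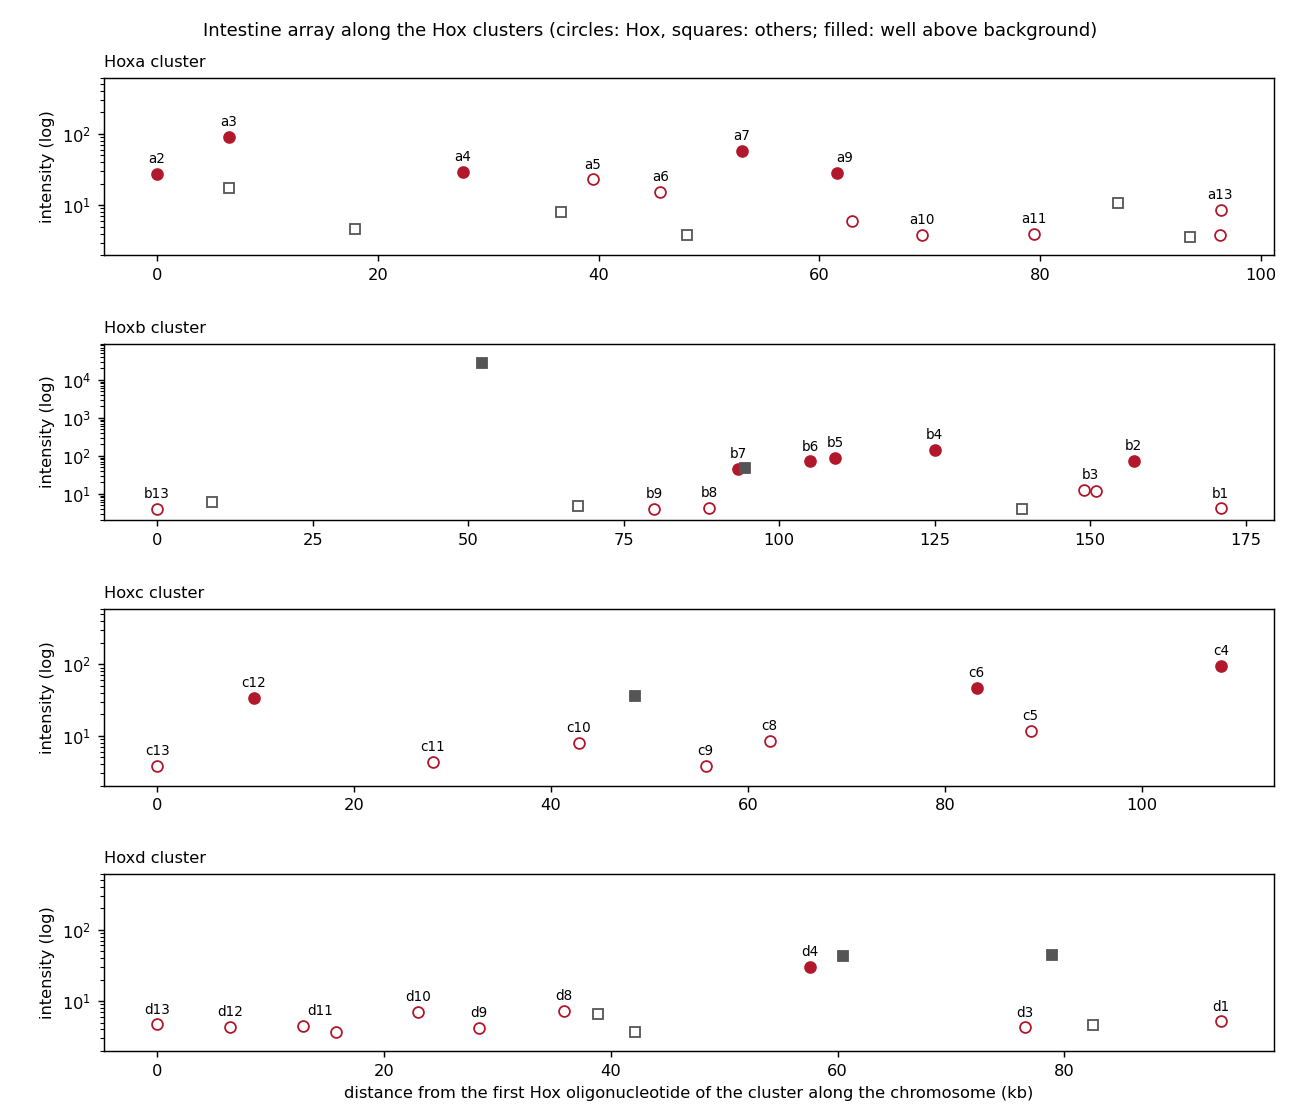
Processed intensity on the intestine array (log axis) against the distance along each cluster in kb; circles are Hox oligonucleotides, squares are others, and filled symbols are well above background. The filled Hoxb circles lie between Hoxb7 and Hoxb2, and Hoxd holds 1 filled circle, Hoxd4.

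RefSeq start sites (build GRCm38.p6) were at hand for 22 of the 38 genes, as 24 promoters. Their 250 bases upstream held a median of 12.5 CpG dinucleotides (range 2 to 35), against 6 in all 32851 promoters of the table, and the 7 genes among them detected on intestine had a median of 7 against 13 in the 17 promoters of the other Hox genes. Searched on both strands, the TATA box TATAAA lay in 16.7% of the Hox promoters and 12.4% of all, TTTATG, a core that Cdx factors bind, in 20.8% and 10.8%, and TGATNNAT, a composite site of Pbx and Hox proteins, in 16.7% and 7.68%. No motif is contained in another, and the reverse complement of the TATA box shares all but its last letter with TTTATG. The upstream sequences of 3 genes detected on intestine that hold such a motif, in capitals, and of Hoxb4, which had the largest bound and holds none, are the following, 5′ to 3′ in the sense of the gene.
Hoxa7 upstream sequence, chr6:52218574-52218823, minus strand: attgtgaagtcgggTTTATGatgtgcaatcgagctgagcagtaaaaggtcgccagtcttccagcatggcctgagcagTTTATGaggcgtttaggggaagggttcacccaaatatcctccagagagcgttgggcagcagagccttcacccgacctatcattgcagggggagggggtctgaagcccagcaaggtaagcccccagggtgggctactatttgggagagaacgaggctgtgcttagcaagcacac
Hoxd4 upstream sequence, chr2:74721728-74721977, plus strand: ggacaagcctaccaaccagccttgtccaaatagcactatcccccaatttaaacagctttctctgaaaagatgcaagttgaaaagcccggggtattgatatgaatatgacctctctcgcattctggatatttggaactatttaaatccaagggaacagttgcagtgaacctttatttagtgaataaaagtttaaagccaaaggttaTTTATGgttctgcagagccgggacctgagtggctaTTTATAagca
Hoxa2 upstream sequence, chr6:52164832-52165081, minus strand: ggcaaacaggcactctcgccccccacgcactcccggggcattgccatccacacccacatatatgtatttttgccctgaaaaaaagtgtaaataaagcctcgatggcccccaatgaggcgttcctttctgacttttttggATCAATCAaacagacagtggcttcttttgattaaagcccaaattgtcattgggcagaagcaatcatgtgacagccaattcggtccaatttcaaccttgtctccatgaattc
Hoxb4 upstream sequence, chr11:96318017-96318266, plus strand: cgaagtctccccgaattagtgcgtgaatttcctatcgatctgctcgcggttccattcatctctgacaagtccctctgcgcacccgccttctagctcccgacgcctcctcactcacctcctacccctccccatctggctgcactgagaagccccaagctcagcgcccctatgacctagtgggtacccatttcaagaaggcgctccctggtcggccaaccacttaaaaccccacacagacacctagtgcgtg
Hoxa7 held TTTATG 2 times and Hoxd4 held it once and, near the start site, the letters of the TATA box on the other strand, while Hoxa2 held the composite site. Hoxa7 was detected on 3 arrays and the other 3 genes on intestine alone. A match describes the letters of this window and shows no binding.

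Genes that work with the Hox proteins were counted from lists chosen for this pathway. In crypt against intestine, 8.68% of all genes were at least 2-fold lower and 4.04% higher, and the list counts stand beside these shares. Of 9 TALE homeodomain cofactors (Pbx, Meis and Pknox genes, which bind DNA together with Hox proteins), 8 were detected on intestine, 6 on crypt, 7 on y-organoid and 6 on o-organoid, and 2 were at least 2-fold lower and 0 higher in crypt than in intestine. Meis1 read 258 ± 26.1 on intestine and 5.74, 4.05 and 5.25 on crypt, y-organoid and o-organoid, at least 15.4-fold lower in crypt, and like Hoxb4 and Hoxc4 it was detected on intestine alone. Meis2 was 3.31-fold lower in crypt (373 against 138) but bright in both organoids, at 416 and 642.

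The ParaHox genes, relatives of the Hox genes, split into those read on all arrays and those read on none. Cdx1, an intestinal identity factor, read 4979 ± 498 on intestine, 14232 ± 1423 on crypt, 4983 ± 498 on y-organoid and 13485 ± 1349 on o-organoid, 2.34-fold higher in crypt than in intestine. Cdx2 read 3675 to 6471 and lay within 2-fold in that comparison. Pdx1, the duodenal and pancreatic factor, was 3.53-fold lower in crypt (338 against 117), and Cdx4, Gsx1 and Gsx2 were detected on no array. Of 21 genes of the Polycomb and trithorax systems, which keep Hox genes silent or active, 19 were detected on intestine and 19 on crypt. In crypt 1 (Cbx7) was at least 2-fold higher than in intestine and 0 were lower, against 4.04% and 8.68% of all genes. Against crypt, 2 of the 21 were higher in y-organoid and 4 in o-organoid, where 10.6% and 4.90% of all genes were. In either organoid 0 were lower, against 7.73% of all genes in each. The counts of higher genes in crypt and in y-organoid lay near the shares of all genes. Of 8 genes of the retinoid pathway, whose ligand turns on 3′ Hox genes in embryos, 4 were at least 2-fold lower in crypt and 0 higher: Aldh1a2 (622 ± 62.3 on intestine, 4.80 to 9.52 on the other 3 arrays), Aldh1a3 (861 ± 86.2, 3.31 to 4.64 elsewhere), Cyp26b1 (255 ± 25.8, 5.97 to 8.75 elsewhere) and Rarg, which was 4.60-fold lower in crypt (178 against 47.3) and read 277 and 202 in the organoids. The other 3 retinoid genes that could be compared were higher in crypt, within 2-fold. Aldh1a1, the brightest of the list, was 1.67-fold higher (20106 against 41024), and read 2019 on y-organoid and 61184 on o-organoid. Rara was 1.22-fold higher, and Rarb, detected on crypt alone, at least 1.66-fold. Of 9 genes next to the clusters that were on the array, 8 were detected on intestine and 2 (Skap1 and Ttll6) were at least 2-fold lower in crypt. Mtx2, next to Hoxd, was 1.06-fold and Hibadh, next to Hoxa, 1.04-fold higher in crypt, with intensities of 1738 and 2887 on intestine.

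Markers of other cell types moved with the Hox genes. Of 11 mesenchyme markers (collagens, Dcn, Lum, Pdgfra, Pdgfrb, Vim, Acta2, Myh11 and Des), 11 were detected on intestine, 1 on crypt (Vim), 2 on y-organoid (Vim and Acta2) and 1 on o-organoid (Vim), and their summed intensity was 29580.1, 227, 172 and 263. All 11 were at least 2-fold lower in crypt, with a median of -5.52, and Dcn, Lum, Pdgfra and Col3a1 were below background on crypt and on both organoids. Of 8 markers of enteric neurons and glia, 7, 1, 3 and 5 were detected on intestine, crypt, y-organoid and o-organoid, with summed intensities of 355, 109, 158 and 225. Uchl1 was detected on intestine alone, and Ret on intestine and o-organoid (41.9 ± 5.90). Endothelial markers were detected in 4, 3, 3 and 3 of 5 cases, immune markers in 6, 5, 3 and 4 of 6 and pancreatic ones in 4, 4, 3 and 3 of 4, while the 8 epithelial markers were detected on every array. Their levels were not even. Against crypt, 3 of the 8 were at least 2-fold lower and 1 higher in y-organoid (7.73% and 10.6% of all genes). In o-organoid 2 were lower and 0 higher (7.73% and 4.90%). Krt20 was 33.8-fold lower in y-organoid and 42.5-fold lower in o-organoid. The pancreatic genes Cel and Cpa1 read 413331 and 315144 on intestine and at most 50.4 elsewhere. The part of these cell types in the Hox differences was not tested, and in bulk RNA fewer cells of a type and less RNA in each cell cannot be told apart.

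**Figure D5:**
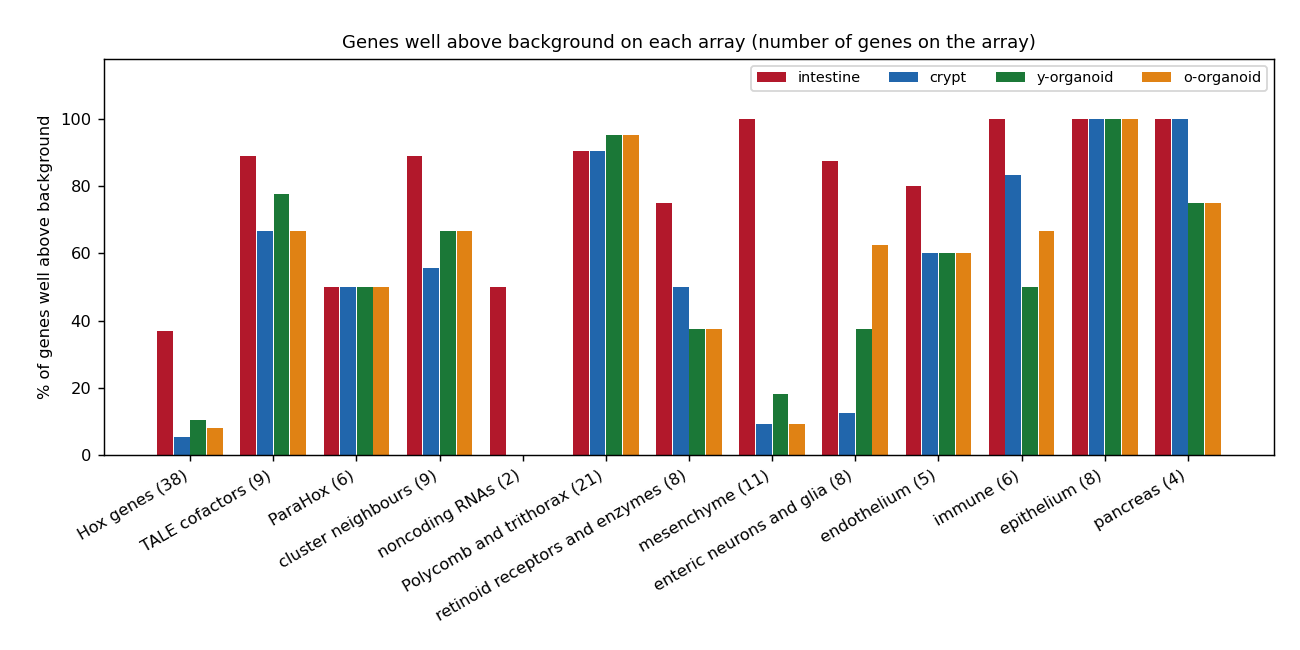
Share of genes well above background on each of the 4 arrays, for the 38 Hox genes and for each gene list, with the number of genes on the array in brackets. The Hox genes (14, 2, 4 and 3 of 38) and the 11 mesenchyme markers (11, 1, 2 and 1) are detected mostly on intestine, and the 8 epithelial markers are detected on all arrays.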

How the data were processed

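Per the file headers, the arrays were read with Agilent Feature Extraction 10.7.3.1, which gave the deposited intensity of each spot after background subtraction, with the software's error, surrogate and background marks. The authors' deposited value table held the same intensity as a ratio to 1 constant per array (40.47, 29.45, 25.16 and 36.94 for intestine, crypt, y-organoid and o-organoid), so each column has a median of 1.0. That it is linear and centred per array was found by setting it against the scanner values. Why these constants were used was not given in the sources used here.

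From the intensities, log2 values minus each array's 75th percentile were computed in Python 3.11.15 (numpy 2.4.6, pandas 2.3.3), leaving out 1377 control spots and outlier spots. Spots of an oligonucleotide were averaged, it counted as detected where at least 50% of its spots were well above background, and a gene was read by its oligonucleotide with the highest mean. A total of 27234 oligonucleotides were named by RefSeq accession, 3576 by symbol and 565 by synonym, 8054 kept the file's name, and 21 without a value on some array were left out. The threshold was 2-fold. The functions were tested on simulated data. Alternatives were normexp (offset 50) and quantile normalization (limma 3.58.1, R 4.3.3), the deposited scaling, no filter on dim signals, outlier spots kept, the median over oligonucleotides, the mark "positive and significant", and 4-fold. Every Hox gene analysed may be named; 1 other gene that meets the rule is not reported here and is in no count. Members, lists and tests were chosen with earlier results of these data known.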

Additional observations from a re-analysis of the deposited data

How the results depend on the processing

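Counts and medians below are of Hox genes. Counts of detected genes rose from 14, 2, 4 and 3 (intestine, crypt, y-organoid, o-organoid) to 23, 15, 16 and 16 when the weaker mark "positive and significant" replaced "well above background". They stayed at 14, 2, 4 and 3 with outlier spots kept and when any oligonucleotide of a gene could count. These settings could change little, since only Hoxa11 and Hoxb1 had outlier spots and 34 of the 38 genes had 1 oligonucleotide. Genes at least 2-fold lower in crypt than in intestine numbered 10, and became 4 with normexp, 6 by quantile normalization, 6 by the deposited scaling, 16 with no filter on dim signals, 16 with the weaker mark and 5 at 4-fold. None was 2-fold higher in crypt under any alternative. The median difference of -1.47 became -0.69 with normexp, -0.74 by quantile normalization, -0.72 by the deposited scaling and -0.35 with no filter. In y-organoid against crypt the 1 higher gene became 0 with normexp, quantile normalization, the deposited scaling and 4-fold, and 5 with no filter and with the weaker mark. The median of 0.73 became 0.24 by quantile normalization, 0.22 by the deposited scaling and 0.26 with no filter. In o-organoid against crypt the 0 higher genes became 1 with no filter and with the weaker mark, and the 1 lower gene became 0 with normexp, quantile normalization and 4-fold and 5 with no filter and the weaker mark. In o-organoid against y-organoid the 0 higher genes became 1 by quantile normalization, the deposited scaling, no filter and the weaker mark. The 3 lower genes became 1 with normexp, quantile normalization, the deposited scaling and 4-fold, and 9 with no filter and the weaker mark. The median of -1.03 became -0.34 by quantile normalization and -0.40 by the deposited scaling. The number past 2-fold falls at 4-fold and rises with the weaker mark by construction, and the cause of the other shifts was not tested. Of 189 differences of single genes under alternatives, 152 kept their side of the threshold, 25 dropped within it, 12 moved past it and 0 reversed. A reversal was counted only where the main difference was past 2-fold, so the sign changes of Hoxa4 are among the 152. Outlier spots kept and the median over oligonucleotides, which could move few Hox values, gave 27 each of the 152. No filter and the weaker mark gave nearly the same values as each other. The 152 are thus not independent checks. No paired analysis was possible because each group had 1 array. Signal over background limits these results: 22 of 38 Hox genes were detected on no array, and a difference under the bound could not be seen.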
